A study of Mus musculus with 6 samples.

Results

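The Bcl2 family of apoptosis regulators was followed in mouse liver as 10 genes, taken by symbol from a deposited table of 45706 genes. They are the effectors Bax and Bak1, the BH3-only genes Bid, Bik, Bcl2l11, Bbc3 and Pmaip1, and the anti-apoptotic genes Bcl2, Bcl2l1 and Mcl1. All 10 had a row, and all 10 passed the filter on low counts that left 14069 genes for testing. The samples were 3 liver libraries labelled ENTPD-8 knockout (KO 1 to KO 3) and 3 labelled wild type (WT 1 to WT 3), from mice kept free of specific pathogens at Charles River. Entpd8 encodes NTPDase8, an ectonucleotidase that breaks down extracellular nucleotides, and the study addresses its role in ischemic liver. Neither the knockout allele nor the sex and age of the mice is stated in the labels, nor whether these livers had been ischemic. Nothing says that each library was a different mouse, and p-values therefore describe the spread among these 6 libraries, which may be technical. Poly(A) RNA was sequenced and given as estimated counts per gene.

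Library totals ran from 40800047 to 46473522 counts in KO and from 32768764 to 39929957 counts in WT. Entpd8 itself had 15, 29 and 52 counts in the KO libraries, against 1416, 876 and 2034 counts in WT 1, WT 2 and WT 3, so the labels and the targeted transcript matched. Of the 14069 genes tested, 20.4% passed an adjusted p of 0.05, 9.8% higher and 10.6% lower in KO. The groups did not overlap for 40.7% of genes. Levels are given in CPM, counts brought to the same library total with TMM scaling, unless given per kilobase of exon. Fold changes are KO over WT on the log2 scale with their standard error (SE).

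Proteins of the Bcl2 family decide whether the outer mitochondrial membrane is opened. Bax and Bak, once activated, form the pores through which cytochrome c leaves for the cytosol, where it starts the caspase cascade. Bcl2, Bcl-xL (the product of Bcl2l1) and Mcl1 hold them in check, and the BH3-only proteins relay stress by occupying these guardians or by activating Bax and Bak directly. In the mouse, loss of Mcl1 or Bcl-xL from hepatocytes is known to cause spontaneous hepatocyte apoptosis, and Bid links death receptors to mitochondria in these cells.

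Of the 10 members, 2 passed the test, against 20.4% of all genes tested, so the share called was about that of the background. Mcl1 rose 2.25-fold in KO livers and Bak1 fell slightly, to 0.736 of its WT level. The anti-apoptotic gene Bcl2l1 had a fold change close to that of Mcl1 but spread widely among the WT libraries and did not pass. None of the 5 BH3-only genes passed. The median log2 fold change of the 10 members was 0.20, against -0.02 over all genes tested. The KO and WT libraries did not overlap for 6 of the 10 members, against 40.7% of all genes tested.

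**Figure D1:**
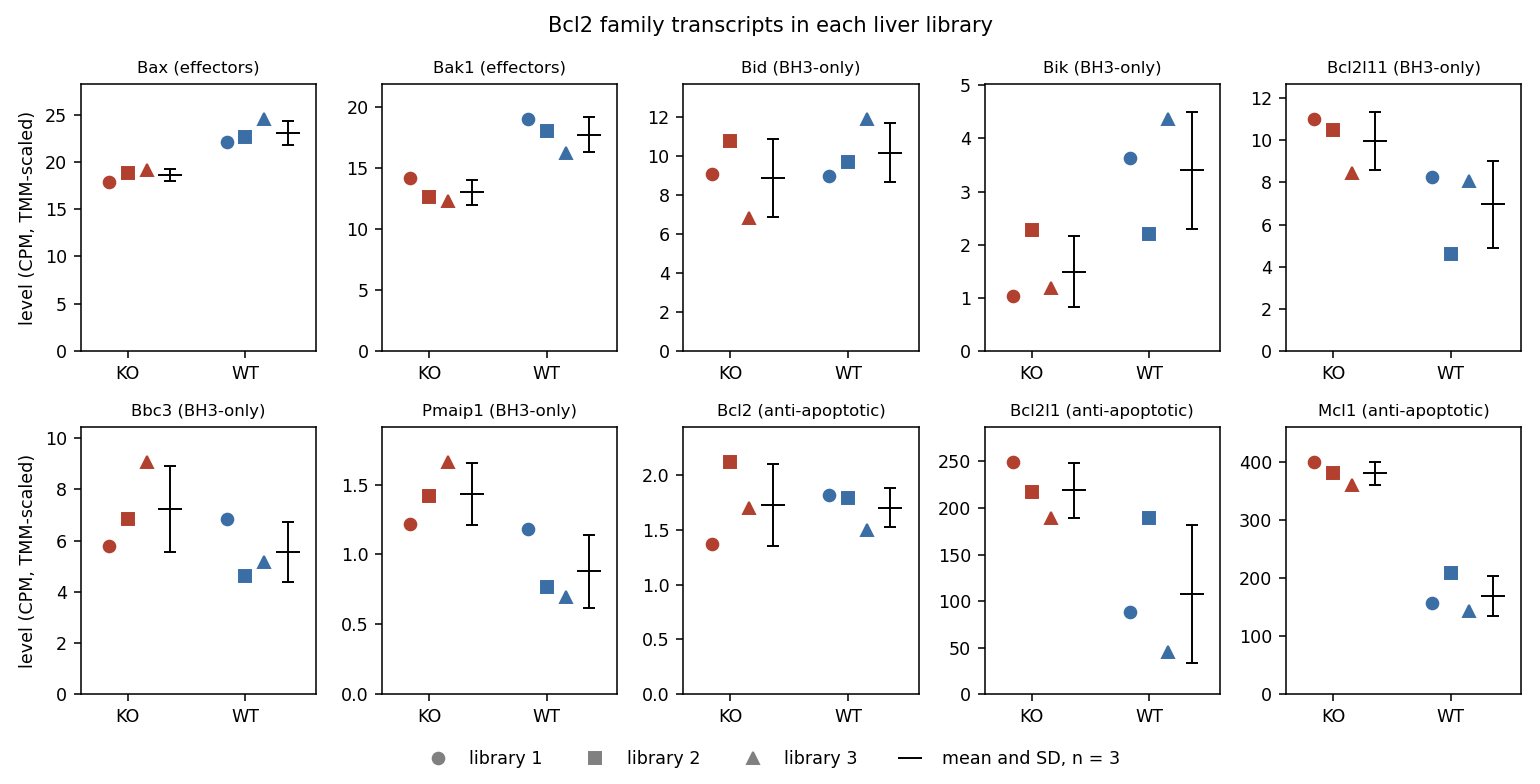
Level of each Bcl2 family gene in CPM (vertical axis from 0, TMM-scaled) in the KO libraries (red, left) and the WT libraries (blue, right), with circles, squares and triangles for libraries 1, 2 and 3 and the mean and SD of each group (n = 3) in black. For Mcl1 all KO points lie above all WT points, while for Bcl2l1 the WT 2 square lies next to the lowest KO point.

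Mcl1, the short-lived guardian that hepatocytes depend on, had the lowest p of the 10 members. Its level was 399.4, 381.5 and 360.2 CPM in KO 1, KO 2 and KO 3, against 156.6, 208.5 and 142.4 CPM in WT 1, WT 2 and WT 3. Every KO library lay above every WT library, and the lowest KO value stood well clear of the highest WT value. This was a log2 fold change of 1.17 ± 0.17 (SE; adjusted p = 0.00544, edgeR), with a 95% interval from 0.78 to 1.55. Mcl1 passed under all 15 alternatives, with log2 fold changes between 1.06 and 1.35. It ranked 266 of 14069 genes by p. The spread was small in KO, with a coefficient of variation of 5.16%, and larger in WT at 20.6%. The gene (ENSMUSG00000038612) occupies chr3:95658788-95663176 of GRCm38, plus strand, with 3418 exonic bases.

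Bcl2l1 (ENSMUSG00000007659, chr2:152780668-152831728, minus strand) encodes Bcl-xL, the other guardian whose loss harms mouse hepatocytes. It had 249.2, 217.7 and 189.6 CPM in the KO libraries, against 88.7, 189.4 and 45.0 CPM in WT 1, WT 2 and WT 3. The KO libraries lay together, whereas WT 2 reached the lowest KO library to within 1 CPM and WT 3 was the lowest of all 6. Counts were 9791, 8735 and 9015 in KO and 3221, 7393 and 1621 in WT, so counting noise was small beside these gaps. The log2 fold change of 1.02 ± 0.47 did not pass (adjusted p = 0.164), and its 95% interval ran from -0.08 to 2.12. Without WT 2 the value was 1.71 and passed (adjusted p = 0.0124), and without WT 3 it was 0.65 (adjusted p = 0.199). DESeq2 called Bcl2l1 with all 6 libraries (adjusted p = 0.0431). The coefficient of variation was 13.6% in KO and 68.7% in WT, the largest WT value among the 10 members. WT 2 also stood apart from WT 1 and WT 3 over all genes, along the second principal component.

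Bcl2 (ENSMUSG00000057329, chr1:106538178-106714274, minus strand), the founding member of the family and best known from lymphocytes, was scarce in these livers. It had 1.37, 2.12 and 1.70 CPM in the KO libraries, against 1.82, 1.79 and 1.5 CPM in the WT libraries. The groups overlapped fully. The log2 fold change was 0.02 ± 0.27 (adjusted p = 0.962), and the 95% interval from -0.59 to 0.64 leaves room for changes in either direction, since 54 to 85 counts per KO library and 54 to 70 per WT library lay behind it.

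The stretch of 250 bases before the RefSeq start of Mcl1 is shown because Mcl1 is the member that rose, and the matching stretch of Bcl2l1 because it is the other abundant guardian and had a similar fold change. RefSeq gave windows for 8 of the 10 members, all but Bik and Pmaip1. Both stretches read 5′ to 3′ on the strand of the gene (RefSeq, GRCm38.p6), Mcl1 from the plus strand of chr3:95658471-95658720 and Bcl2l1 from the minus strand of chr2:152831729-152831978, which is the only one of its 3 RefSeq windows that holds no annotated exon. Capitals mark matches to the motifs searched.
Mcl1: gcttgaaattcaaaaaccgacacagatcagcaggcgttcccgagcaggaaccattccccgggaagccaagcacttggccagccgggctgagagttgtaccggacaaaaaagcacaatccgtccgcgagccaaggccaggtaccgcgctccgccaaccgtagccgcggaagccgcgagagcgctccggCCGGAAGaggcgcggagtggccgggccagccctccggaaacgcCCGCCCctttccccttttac
Bcl2l1: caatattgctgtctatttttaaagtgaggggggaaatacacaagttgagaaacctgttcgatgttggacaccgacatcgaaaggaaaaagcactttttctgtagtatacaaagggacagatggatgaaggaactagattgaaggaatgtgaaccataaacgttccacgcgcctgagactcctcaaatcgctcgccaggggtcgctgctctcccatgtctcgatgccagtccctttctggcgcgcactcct

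On both strands, the motifs searched were AP-1 (TGANTCA), E-box (CACGTG), FOXO (TGTTTAC), CRE (TGACGTCA), ETS (CCGGAAG), STAT (TTCNNNGAA) and GC box (GGGCGG), with the SRF CArG box and the p53 half-site by name. CRE holds the letters of neither AP-1 nor the E-box. The Mcl1 window held an ETS match 63 to 57 bases before the start and a GC box 20 to 15 bases before it, the GC box on the other strand. Of all 32851 RefSeq windows of the same length, 6.91% held the ETS letters and 32.7% the GC box. The Bcl2l1 window held none of the 9 motifs. GC content was 64.4% in the Mcl1 window and 47.6% in the Bcl2l1 window, against a median of 52.4% over all windows. A match describes letters only, and the lack of one says nothing about any factor.

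Among the effectors, Bak1 fell and Bax was lower by an amount that did not pass. Bak1 (ENSMUSG00000057789, chr17:27019810-27029009, minus strand) encodes a pore former that sits in the outer mitochondrial membrane. It had 14.2, 12.6 and 12.3 CPM in KO 1, KO 2 and KO 3, against 19.0, 18.0 and 16.2 CPM in WT 1, WT 2 and WT 3. All KO libraries lay below all WT libraries. This was a log2 fold change of -0.44 ± 0.13 (adjusted p = 0.0414). The call was close to the threshold. Leaving out KO 1, KO 2, KO 3, WT 1 or WT 2 ended it (adjusted p between 0.0636 and 0.115), as did RLE scaling (adjusted p = 0.0502) and keeping all genes unfiltered (adjusted p = 0.0566). Exons of Ggnbp1 on the other strand overlap 437 of the 2407 exonic bases of Bak1, and the labels do not say whether the counts kept strands apart. Ggnbp1 had 8.16 to 11.6 CPM in KO and 5.12 to 9.11 CPM in WT.

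Bax (ENSMUSG00000003873, chr7:45461697-45466898, minus strand) encodes the cytosolic effector that moves to mitochondria when activated. It had 17.9, 18.8 and 19.1 CPM in the KO libraries, against 22.1, 22.6 and 24.5 CPM in the WT libraries. The groups did not overlap, and both were tight, with coefficients of variation of 3.3% in KO and 5.47% in WT. The log2 fold change of -0.31 ± 0.11 did not pass (adjusted p = 0.0734), although its unadjusted 95% interval from -0.55 to -0.07 lay below 0. It passed with upper-quartile scaling (adjusted p = 0.0456) and with no other alternative tried. Exons of Gm45808 on the same strand overlap 192 of the 1576 exonic bases of Bax, and Gm45808 had no row in the deposited table. Summed per kilobase of exon, the pair of effectors had 17.2 ± 0.0463 in KO and 22.0 ± 0.229 in WT (SD, n = 3 each). In KO 2 and KO 3, Bak1 was lower and Bax higher than in KO 1, so the sums came out nearly equal. These small differences rest on 704, 756 and 907 counts of Bax in KO 1, KO 2 and KO 3. For Bak1 the counts were 559, 505 and 586. Whether Bax and Bak1 vary together was not tested.

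The BH3-only genes did not move as a block: Bik and Bid were lower on average in KO livers, and Bcl2l11, Bbc3 and Pmaip1 were higher. With edgeR 0 of 5 passed, against 20.4% of all genes tested; Bik was the 1 gene with an unadjusted p under 0.05 (0.014). DESeq2 called 1 of the 5, Bik, and limma voom called 0. Bik (ENSMUSG00000016758, chr15:83526862-83544634, plus strand) encodes a BH3-only protein of the endoplasmic reticulum and had the largest log2 fold change of the 10 members in size, narrowly ahead of Mcl1. It had 1.04, 2.27 and 1.18 CPM in KO 1, KO 2 and KO 3, against 3.64, 2.20 and 4.36 CPM in WT 1, WT 2 and WT 3. The groups met at the libraries numbered 2, with KO 2 above WT 2. Its log2 fold change was -1.18 ± 0.38 (adjusted p = 0.0614). It passed without KO 2 (-1.61, adjusted p = 0.0376), without WT 2 (-1.42, adjusted p = 0.0326), with DESeq2 (adjusted p = 0.0177) and with all genes kept unfiltered (adjusted p = 0.0342).

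Bid (ENSMUSG00000004446, chr6:120891930-120916853, minus strand) encodes the protein that caspase-8 cleaves to carry a death receptor signal to mitochondria. It had 9.11, 10.8 and 6.81 CPM in KO, against 8.98, 9.69 and 11.9 CPM in WT. The groups overlapped and the log2 fold change was -0.20 ± 0.20 (adjusted p = 0.523). Exons of Bcl2l13 on the other strand overlap 628 of its 3550 exonic bases.

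Bcl2l11 (ENSMUSG00000027381, chr2:128126038-128162547, plus strand) encodes Bim, a BH3-only activator that binds all the guardians. It had 11, 10.5 and 8.43 CPM in the KO libraries, against 8.27, 4.59 and 8.05 CPM in the WT libraries. All KO values were higher, but KO 3 and WT 1 nearly touched and WT 2 was low. The log2 fold change was 0.52 ± 0.24 (adjusted p = 0.159), and 0.29 without WT 2 (adjusted p = 0.248). Bbc3 (ENSMUSG00000002083, chr7:16308393-16318205, plus strand) encodes Puma, a p53-induced activator. It had 5.78, 6.83 and 9.06 CPM in KO, against 6.86, 4.61 and 5.16 CPM in WT, with overlapping groups and a log2 fold change of 0.38 ± 0.23 (adjusted p = 0.268). Pmaip1 (ENSMUSG00000024521, chr18:66458533-66465565, plus strand) encodes Noxa, which binds Mcl1 by preference. It had 1.22, 1.42 and 1.66 CPM in KO, against 1.18, 0.769 and 0.694 CPM in WT, from 48 to 79 counts per KO library and 25 to 43 per WT library. Its groups did not overlap, KO 1 and WT 1 lay close, and the log2 fold change of 0.70 ± 0.32 did not pass (adjusted p = 0.152). Bcl2l11, Bbc3 and Pmaip1 passed under none of the 15 alternatives.

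**Figure D2:**
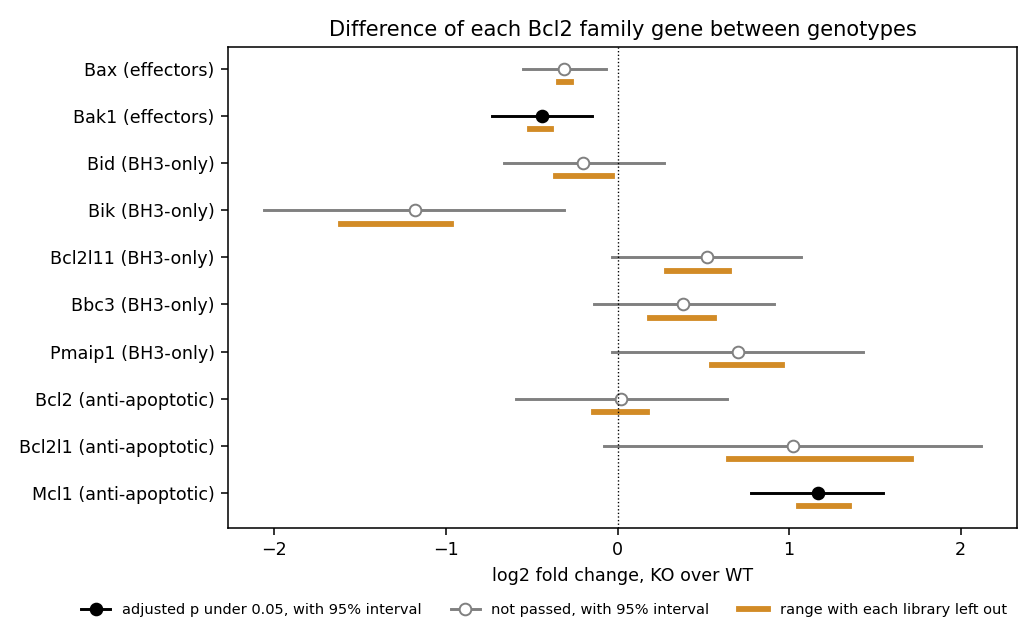
Log2 fold change of each Bcl2 family gene, KO over WT (horizontal axis), with its 95% interval, filled where the adjusted p was under 0.05, and in orange the range of the value when each of the 6 libraries was left out in turn. Mcl1 and Bak1 are filled, the interval of Bcl2l1 runs from -0.08 to 2.12, and the leave-out range of Bcl2 spans 0.

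Levels between genes were compared per kilobase of exon, in CPM per kilobase. Mcl1 and Bcl2l1 led the family in both genotypes. Mcl1 averaged 111 ± 5.75 in KO and 49.5 ± 10.2 in WT, and Bcl2l1 averaged 47.7 ± 6.5 in KO and 23.5 ± 16.1 in WT (SD, n = 3 each). In KO the order below them was Bax (11.8 ± 0.389), Bak1 (5.42 ± 0.428), Bbc3, Bid, Bcl2l11, Bik, Pmaip1 and Bcl2 (0.189 ± 0.0407). Neighbours in that order whose libraries overlapped were Bbc3 and Bid, and Bcl2l11 and Bik. In WT the order was Mcl1, Bcl2l1, Bax (14.6 ± 0.800), Bak1 (7.36 ± 0.600), Bid, Bbc3, Bik, Bcl2l11, Pmaip1 and Bcl2 (0.186 ± 0.0194). There, Bcl2l1 overlapped Bax, Bid overlapped Bbc3, and Bbc3 overlapped Bik. The choice of length moved all these levels. With the mean transcript length in place of the union of exons, Mcl1 averaged 178 ± 9.18 in KO and 79.1 ± 16.3 in WT. Bcl2l1 then averaged 149 ± 20.2 in KO and 73.1 ± 50.3 in WT (SD, n = 3 each). These 2 genes thus lay closer together, and their libraries overlapped in KO and in WT. In WT 2, Bcl2l1 (128.6) stood above Mcl1 (97.5). In KO, Bbc3 (8.06) then stood above Bak1, Bid and Bak1 were level at 7.23, and Bcl2l11 was at 4.69, while the other ranks were the same.

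The 3 anti-apoptotic genes together made up 86.0 ± 1.14% of the summed per-kilobase level of the 10 members in KO livers and 69.1 ± 8.24% in WT livers (SD, n = 3 each). By library the share was 87.3%, 85.6% and 85.1% in KO, against 67.5%, 78.0% and 61.7% in WT 1, WT 2 and WT 3. The KO libraries lay above the WT libraries, of which WT 2 came nearest. Among these genes, only the share of Mcl1 was higher in every KO library (60.2 ± 0.768% in KO and 47.8 ± 1.74% in WT). The share of Bcl2l1 overlapped between groups (25.7 ± 1.87% in KO and 21.0 ± 9.89% in WT). That of Bcl2 was lower in KO (0.103 ± 0.0243%, against 0.183 ± 0.0301% in WT). The anti-apoptotic share thus carries the rise of Mcl1. Effectors held 9.34 ± 0.593% in KO and 21.9 ± 5.04% in WT, and BH3-only genes 4.68 ± 0.635% in KO and 8.98 ± 3.22% in WT. These shares move together by construction, since they add to a whole. With the mean transcript length the anti-apoptotic share was 84.8 ± 1.39% in KO and 67.4 ± 10.3% in WT, and the BH3-only share overlapped between groups (5.84 ± 0.703% in KO and 10.8 ± 4.22% in WT). The summed BH3-only level itself was 8.62 ± 0.880 CPM per kilobase in KO and 8.81 ± 1.46 in WT, with overlapping groups. Within that sum, Bik held 10.7 ± 3.72% in KO and 23.8 ± 4.29% in WT, and Bcl2l11 held 14.5 ± 2.79% in KO and 9.69 ± 1.49% in WT.

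Ratios of 2 transcripts within a library do not depend on how libraries are scaled, and are given as log2 ratios of CPM per kilobase without a test. Another gene length shifts a ratio by the same amount in every library, so its size rests on the length used and the difference between groups does not. Bax over Bcl2, the ratio most often quoted, was 6.24, 5.69 and 6.02 in KO, against 6.14, 6.19 and 6.57 in WT, with overlapping groups. Bax over Mcl1 was -3.36, -3.22 and -3.12 in KO, against -1.71, -2.09 and -1.42 in WT. Bak1 over Mcl1 was -4.31, -4.42 and -4.36 in KO, against -2.54, -3.03 and -2.63 in WT. For both effectors the ratio to Mcl1 was lower in every KO library than in any WT library. Each ratio to Mcl1 carries the rise of Mcl1 itself (log2 fold change 1.17), so it is not a finding separate from that rise. Bax over Bcl2l1 was -2.26, -1.99 and -1.77 in KO, against -0.465, -1.53 and 0.663 in WT, where WT 3 was the only library with more Bax than Bcl2l1 per kilobase.

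Among the 5 BH3-only genes, the ratio to Mcl1 overlapped between groups for Bcl2l11, Bbc3 and Pmaip1 and did not for Bid and Bik. Bid over Mcl1 was -5.51, -5.20 and -5.78 in KO, against -4.18, -4.48 and -3.63 in WT. Bik over Mcl1 was -7.48, -6.29 and -7.15 in KO, against -4.33, -5.46 and -3.93 in WT. Both were lower in every KO library than in any WT library. The levels of Bid and of Bik themselves overlapped between groups, with a log2 fold change of -0.20 ± 0.20 for Bid, and both ratios carry the rise of Mcl1. Bcl2l11 over Mcl1 was -6.42, -6.41 and -6.65 in KO, against -5.48, -6.74 and -5.38 in WT. The WT 2 value was the lowest of the 6 libraries. Bbc3 over Mcl1 averaged -5.06 ± 0.403 in KO and -4.25 ± 0.509 in WT, and Pmaip1 over Mcl1 averaged -7.74 ± 0.297 in KO and -7.28 ± 0.523 in WT (SD, n = 3 each). Bcl2l1 over Mcl1 was -1.11, -1.23 and -1.35 in KO, against -1.24, -0.562 and -2.09 in WT, so the balance between the guardians was even across KO libraries and spread on both sides of them in WT.

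**Figure D3:**
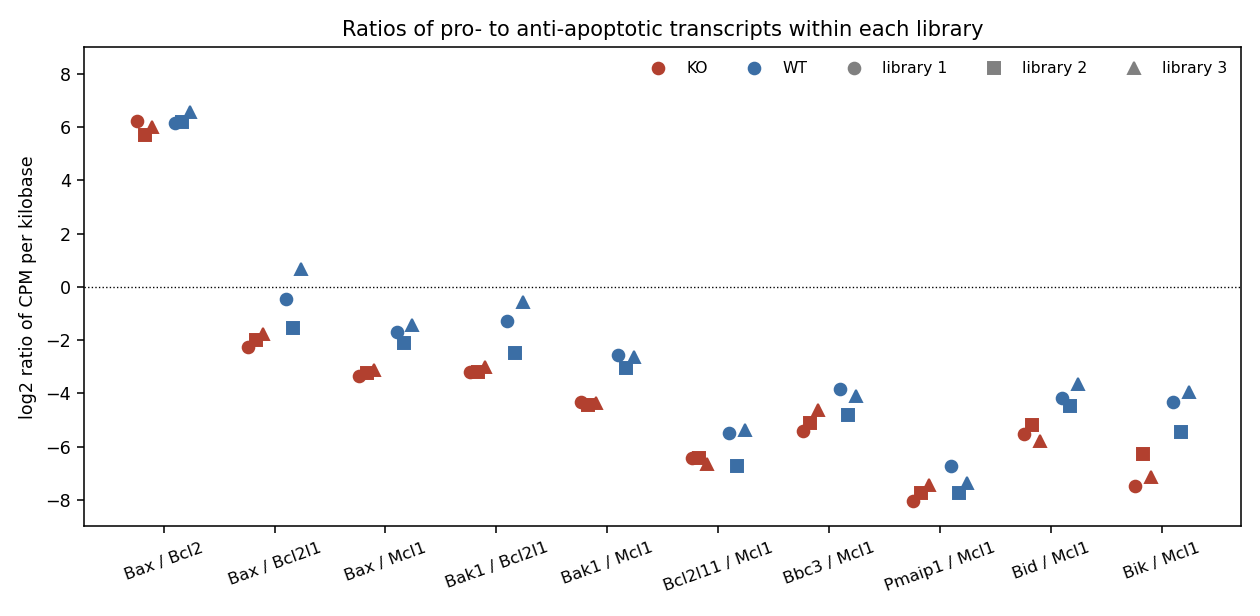
Log2 ratio of CPM per kilobase (vertical axis) for 10 pairs of Bcl2 family genes (along the horizontal axis) in each library, KO in red on the left of each pair and WT in blue on the right, with symbols for the library number. The ratios of Bax and Bak1 to Mcl1 and to Bcl2l1, and of Bid and Bik to Mcl1, are lower in every KO library than in any WT library, and the other 4 ratios overlap. Ratios to Mcl1 or Bcl2l1 carry the higher KO level of that gene itself.

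The wider family was taken as 16 further Bcl2-like and BH3-containing genes. Of these, 13 could be tested and 1 passed, Bcl2l2, against 20.4% of all genes tested; the median log2 fold change was -0.03. Bcl2l2 encodes the guardian Bcl-w. It had 14.0, 13.1 and 17 CPM in the KO libraries, against 25.6, 20.9 and 24.5 CPM in the WT libraries. All KO values were lower, and the log2 fold change was -0.68 ± 0.14 (adjusted p = 0.0163). Bcl2l2 therefore fell while Mcl1 rose. It did not pass without KO 1 (adjusted p = 0.0814) or WT 1 (adjusted p = 0.0513). The BH3-only gene Bad (-0.24 ± 0.18) and the mitophagy receptor Bnip3l (-0.17 ± 0.11) did not pass (adjusted p = 0.370 and 0.312). Bcl2l14 had 1.58 ± 0.519 CPM in KO and 0.724 ± 0.254 CPM in WT (adjusted p = 0.0749).

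Bcl2a1b, an anti-apoptotic gene of leukocytes, had 1.81 ± 0.256 CPM in KO and 0.977 ± 0.357 CPM in WT (SD, n = 3 each; adjusted p = 0.0925). Its near-identical copies Bcl2a1a and Bcl2a1d can share its reads, so their split is uncertain. In bulk tissue, fewer cells of a type and less RNA per cell cannot be told apart. Calls in the marker lists that follow stand against 20.4% of all genes tested, 9.8% higher and 10.6% lower in KO. Summed T and NK cell markers ran from 4.07 to 4.54 CPM in KO and from 1.75 to 2.02 CPM in WT, with 0 of 5 tested markers called. Summed B and plasma cell markers ran from 17 to 40.9 CPM in KO and from 3.05 to 7.36 CPM in WT, with 1 of 3 tested called, Jchain. Summed neutrophil markers overlapped, from 86.3 to 118.9 CPM in KO and from 19.4 to 129.9 CPM in WT, with 0 of 7 called.

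Kupffer and macrophage markers fell in 4 of 8 tested, Cd5l, Clec4f, Csf1r and Vsig4, against 10.6% of all genes lower in KO. Their sums were 55.6 to 66.4 CPM in KO and 96.2 to 221.4 CPM in WT. Biliary markers rose in 2 of 5 tested, Epcam and Krt19, against 9.8% of all genes higher in KO. Their sums were 121.5 to 311.6 CPM in KO and 80.4 to 109.2 CPM in WT. Endothelial and stellate markers had 0 of 6 called each, against 20.4% of all genes tested. Sums were 83.9 to 118.9 CPM in KO and 105.0 to 136.6 CPM in WT for the endothelial list. For the stellate list they were 133.2 to 288.5 CPM in KO and 195.5 to 270.1 CPM in WT. Hepatocyte markers, which identify the tissue, summed to 68943.6 to 90169.8 CPM in KO and 71119.5 to 88805.2 CPM in WT. Of these, 1 of 8 fell, Fgb, which is near the 10.6% of all genes lower in KO. No marker of these 8 lists was at 0 counts in all 6 libraries. The share of mitochondrially encoded counts was 10.1% to 11.7% in KO and 6.52% to 8.34% in WT. The part of these differences in the values of the Bcl2 family was not tested.

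Downstream of the mitochondrion, 1 of the 13 tested genes reported rose and 1 fell, which is 15.4% called, against 20.4% of all genes tested. Birc3, an inhibitor of apoptosis protein, rose, with a log2 fold change of 1.25 ± 0.16 (adjusted p = 0.00407). It had 20.4, 25.9 and 29.3 CPM in KO, against 11.5, 10.9 and 9.47 CPM in WT, and passed under all 15 alternatives. Dffa, which restrains the apoptotic nuclease Dffb, fell, with a log2 fold change of -0.77 ± 0.18 (adjusted p = 0.0237). It lost its call when KO 1 or KO 3 was left out (adjusted p up to 0.103). The initiator Casp9 did not pass (0.44 ± 0.18, adjusted p = 0.117). Endog, a mitochondrial nuclease gene (0.38 ± 0.16, adjusted p = 0.131), and Aifm1, which encodes the apoptosis-inducing factor of mitochondria (0.22 ± 0.11, adjusted p = 0.169), did not pass. The median log2 fold change of the list was 0.03.

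On the death receptor route that leads to Bid, 8 of 9 genes were tested, 1 rose and 1 fell, which is 25.0% called and near the 20.4% of all genes tested. The receptor Fas rose to 23.8 ± 1.56 CPM in KO, against 16.5 ± 2.54 CPM in WT (log2 fold change 0.53 ± 0.14, adjusted p = 0.0331). Its adaptor Fadd fell to 6.24 ± 0.250 CPM in KO, against 9.54 ± 1.38 CPM in WT (-0.61 ± 0.16, adjusted p = 0.0319). Both calls held only without WT 2 among the 6 fits that left out a library (adjusted p up to 0.145 in the others). Casp8, the protease that cleaves Bid, had 33.5 ± 6.75 CPM in KO and 30.2 ± 2.15 CPM in WT (adjusted p = 0.523). The adaptor Tradd (-0.19 ± 0.20) and the receptor Tnfrsf1a (-0.20 ± 0.21) did not pass (adjusted p = 0.530 and 0.533). The list's median was -0.08.

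Of 20 transcription factors known to act on genes of the family, 19 were tested. Of these, 8 rose and 0 fell, against 9.8% of all genes higher in KO. The list's median was 0.40. The list was chosen with earlier results of these data known, so these counts only describe it. Jun, which can induce Bcl2l11, had 585.1, 816.8 and 1003.0 CPM in KO, against 101.1, 124.0 and 46.7 CPM in WT (3.15 ± 0.39, adjusted p = 0.00438). Atf3 (3.12 ± 0.30) and Myc (2.28 ± 0.13) rose too, with Egr1 (2.01 ± 0.39), Stat5a (0.64 ± 0.13), Ddit3, Nfkb1 and Stat5b. Trp53, the p53 gene itself, had 17.2, 15.4 and 22.6 CPM in KO, against 20.2, 24.7 and 21.3 CPM in WT, and did not pass. The FOXO factor Foxo3, an inducer of Bcl2l11, had 39.6, 50.2 and 20.7 CPM in KO, against 26.9, 29.3 and 32.0 CPM in WT. Its groups overlapped through KO 3, and it did not pass (0.32 ± 0.29, adjusted p = 0.461). It passed in 1 of the 6 fits that left out a library (adjusted p = 0.0421). Egr1 did not pass without KO 1 (adjusted p = 0.0575), Stat5a without KO 1 or WT 1 (adjusted p up to 0.0839), Nfkb1 in every such fit but those lacking KO 2 or WT 2 (adjusted p up to 0.0976), Ddit3 in every one but that lacking WT 2 (adjusted p up to 0.116) and Stat5b in all 6 (adjusted p up to 0.157).

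Genes whose products bind or modify the family numbered 23. Of these, 22 were tested, 3 rose and 2 fell, which is 22.7% called and near the 20.4% of all genes tested, with a median of 0.13. Bag3, a co-chaperone that binds Bcl2, rose to 168.8 ± 16.8 CPM in KO, against 56.5 ± 23.0 CPM in WT (1.58 ± 0.27, adjusted p = 0.0103). The mitochondrial channel Vdac1 (0.46 ± 0.12, adjusted p = 0.0297) and the kinase Gsk3b, which marks Mcl1 for degradation (0.50 ± 0.14, adjusted p = 0.0397), rose as well. The calcium release channels Itpr1 (-1.02 ± 0.20, adjusted p = 0.0140) and Itpr2 (-0.52 ± 0.12, adjusted p = 0.0217), which Bcl2 family proteins bind, fell. The ubiquitin ligase gene Huwe1 and the deubiquitinase gene Usp9x, both acting on Mcl1 protein, did not pass. Itpr1 lost its call without KO 1 (adjusted p = 0.0639), Itpr2 without KO 1, KO 3 or WT 1 (adjusted p up to 0.113), Vdac1 without KO 1, KO 2, KO 3 or WT 3 (adjusted p up to 0.142) and Gsk3b in every such fit but the one lacking WT 2 (adjusted p up to 0.178).

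Of 10 genes of the p53 pathway outside the family, 3 rose and 0 fell, against 9.8% of all genes higher and 10.6% lower in KO, with a median of -0.08. Trp53inp1 rose to 387.8 ± 106 CPM in KO, against 126.0 ± 53.1 CPM in WT (1.62 ± 0.35, adjusted p = 0.0199). The p53 ligase Mdm2 (0.64 ± 0.14, adjusted p = 0.0213) and the membrane protein gene Perp (0.40 ± 0.11, adjusted p = 0.0380) rose. Mdm4 (-0.32 ± 0.12) and Pidd1 (-0.68 ± 0.28) did not pass (adjusted p = 0.0888 and 0.118). Cdkn1a, the classic p53 target, spread like Bcl2l1 in WT, with 165.9, 150.7 and 160.5 CPM in KO, against 98.7, 229.6 and 50.9 CPM in WT 1, WT 2 and WT 3. Perp did not pass with any 1 library left out (adjusted p up to 0.162), Mdm2 without any 1 other than WT 2 or WT 3 (adjusted p up to 0.0692) and Trp53inp1 without KO 1, KO 2 or WT 1 (adjusted p up to 0.0822).

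**Figure D4:**
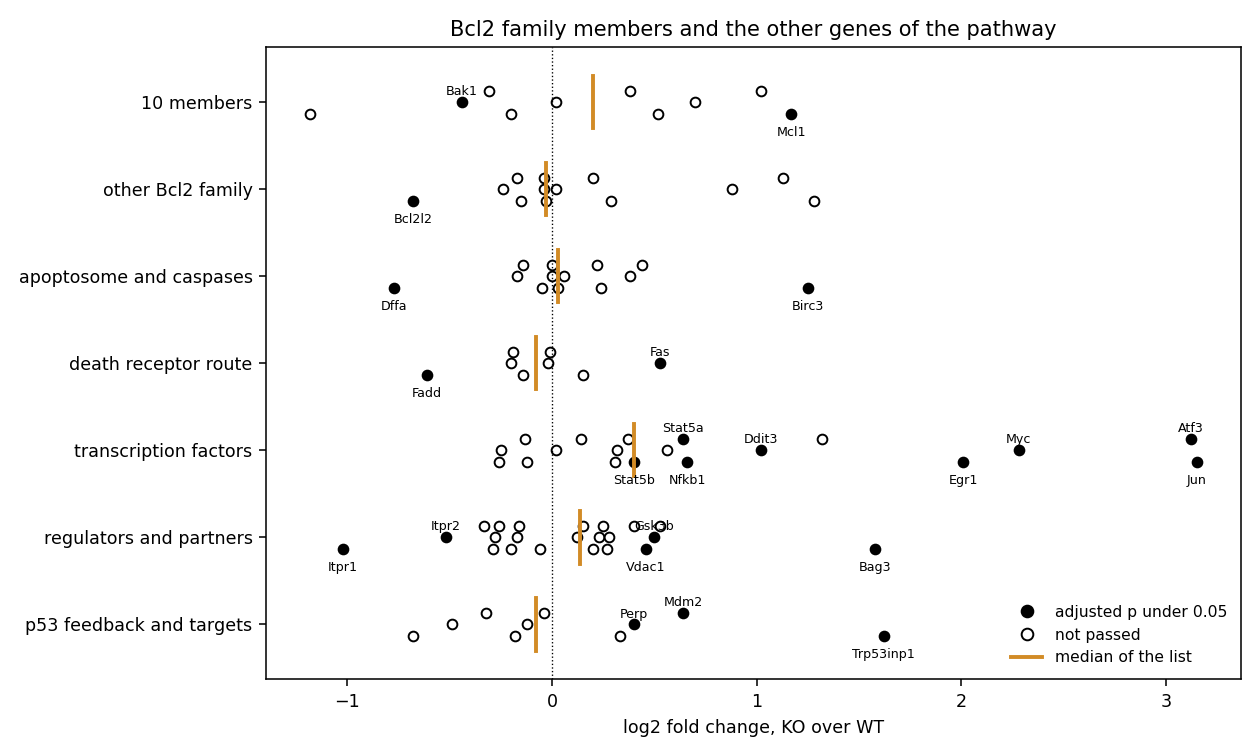
Log2 fold change, KO over WT (horizontal axis), of each tested gene among the 10 members and 6 lists of the wider pathway, filled and named where the adjusted p was under 0.05, with the median of each list in orange. The transcription factor list reaches farthest to the right, with Jun and Atf3 above 3.

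For the member with the lowest p in each role, the genes with the most similar pattern were sought among 10461 others, by the root mean square difference in log2 CPM centred over the 6 libraries. Those nearest to Mcl1 were Lnx2 (0.083), Arl4a (0.0916) and Sertad1 (0.0986), against a median of 0.662 over all genes compared. Those nearest to Bak1 were Nfatc3 (0.0433), Slc25a26 (0.0438) and Rb1cc1 (0.0491), against a median of 0.328. Those nearest to Bik were Grk3 (0.168), Cd320 (0.197) and Rtp3 (0.200), against a median of 0.774. The likeness describes these 6 libraries only.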

How the data were processed

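Poly(A) RNA was sequenced in 3 KO and 3 WT liver libraries. The submitters' processing notes name Trim Galore, STAR, Salmon and GRCm38, without versions, order or gene annotation. The authors deposited expected counts per gene, estimated and not normalized, per the file headers and the values. Columns were tied to samples by title, and no sample was left out.

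Values were rounded to whole numbers, and 45143 of 45706 genes matched a symbol. After filterByExpr and TMM scaling, genotype was tested with edgeR 4.0.16 (quasi-likelihood, robust, two-sided, R 4.3.3) and Benjamini-Hochberg adjustment over 14069 genes. Each SE is |log2 fold change| over the root of F, and intervals use that fit's t distribution. Exon lengths and positions are from GENCODE M21 (GRCm38). Simulated KO and WT counts for 14069 genes, of which 13807 were fitted, had 100 genes raised 3-fold and 100 raised 1.5-fold in KO. Of these, 88% and 13% were called, with 0.0367% of unchanged genes. Far more genes were called in the real libraries, 20.4% and in both directions, so these rates need not hold there. Alternatives were other scalings and filters, no robust estimation, DESeq2 1.42.0, limma voom 3.58.1, leaving out each library, and the replicate number as a block; mean transcript length was tried for levels per length.

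The members and lists were chosen with earlier results of these data known, so their shares called only describe them. Named were all 10 members, Entpd8, up to 5 genes of each other list by lowest p (average log2 CPM no lower than 0), and the 3 most similar genes for 1 member per role. Some genes of the list downstream of the mitochondrion are not reported here, and its counts, median and plot leave them out. Ddit3, Nfkb1 and Stat5b complete a count of calls. Trp53, Foxo3, Huwe1, Usp9x, Cdkn1a, the Bcl2a1 copies, Hrk, Bcl2l15, Bcl2l10 and the motifs were chosen after values were seen. An exact permutation test of 3 against 3 libraries has 0.1 as its smallest two-sided p.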

Additional observations from a re-analysis of the deposited data

How the results depend on the processing

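Among the 10 members, the 2 calls became 1 with RLE scaling, 1 with the replicate block, 4 with DESeq2 (Bak1, Bcl2l1, Bik and Mcl1) and between 1 and 3 when each library was left out. Mcl1 was called in each of these fits. Over all genes, the 2871 calls became 1468 with the replicate block (807 higher and 661 lower) and ranged from 603 (without KO 1) to 3080 (without WT 2) when each library was left out, with 385 to 1390 higher and 218 to 1690 lower. Same-numbered KO and WT libraries deviated from their group means with correlations of -0.0767, -0.0249 and -0.0574. Those of differing number ran from -0.0749 to 0.1225. With 3 libraries per group these values cannot tell whether the numbers pair the samples, and the labels do not say. Bak1 had an adjusted p of 0.0811 with the block. Bcl2 had a log2 fold change of -0.0245 with upper-quartile scaling and -0.0497 with library totals, and from -0.144 (without KO 2) to 0.168 (without KO 1) when each library was left out, with -0.064 without WT 3. Casp8 ranged from -0.0046 (without KO 3) to 0.286 (without KO 2); the cause was not tested. Over 44 named genes and 15 alternatives, 557 of 659 values kept their direction and side of the threshold, 88 lost the call, 9 gained one and 5 changed sign. Scaling by library totals moved the median log2 fold change of all genes to -0.1001. Low counts limit Bcl2, Bik and Pmaip1.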

Other observations

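Further genes of the family sat at or near the limit of detection in liver. Hrk, a BH3-only gene known from neurons, had 13, 4 and 12 counts in KO 1, KO 2 and KO 3, against 4, 9 and 3 counts in WT 1, WT 2 and WT 3. Bcl2l15 had 1, 4 and 3 counts in KO, against 2, 3 and 1 counts in WT. Bcl2l10 had 0 counts in all 6 libraries. These 3 genes did not reach the filter and were not tested. Bcl2a1d had 17, 29 and 12 counts in KO, against 8, 5 and 8 counts in WT, with a log2 fold change of 1.28 ± 0.51 that did not pass (adjusted p = 0.111). Bcl2a1a had 12, 11 and 12 counts in KO, against 16, 4 and 5 counts in WT.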
